A study of Homo sapiens with 18 samples.

Results

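The genes described here are 45 genes of DNA replication and mitosis, chosen as a list of names by function, with no threshold on a measured value. All 45 were found in the deposited table of 57808 genes, and all 45 were measured well enough to be tested in every comparison below. They divide by role into 13 genes of origin licensing and the replicative helicase, 7 of the replication fork and nucleotide supply, 6 G1 and S phase cyclins with their kinase and E2F1, 2 inhibitors of cyclin-dependent kinases (CDK), 7 G2 and M phase cyclins and kinases, and 10 genes of the spindle, the centromere, chromosome structure and mitotic exit.

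The cells came from 1 human embryonic stem cell line, MEL1 with an INSGFP/W reporter, in which green fluorescent protein (GFP) is read out from the insulin locus. The tested cells were GFP+ and GFP- cells sorted at the beta-like stage of the differentiation (sBC, stem cell derived beta-like cells) in stirred suspension, and definitive endoderm (DE), the first germ layer step of that differentiation. The undifferentiated cells of the line (hPSC) were the starting point. RNA was sequenced in GFP+ sBC, GFP- sBC, DE and hPSC, total ribosome footprints (Ribo) in DE and hPSC, and footprints pulled down through a FLAG tag on the ribosomal protein RPL22 (IP-Ribo) in GFP+ sBC, DE and hPSC, with 2 libraries in each of the 9 groups. By their labels hPSC and DE carried RPL22-FLAG in every assay. The GFP+ sBC used for IP-Ribo received RPL22-FLAG by lentivirus, and the sBC used for RNA are labelled GFP+ or GFP- without the tag. Assay and genotype therefore cannot be told apart in sBC. In RNA, stage and tag cannot be told apart either, in any comparison of GFP+ or GFP- sBC with hPSC or DE. GFP- sBC are labelled as differentiated beta cells like the GFP+ ones; they carried hormone transcripts too. The summed level of 6 beta cell markers was 5824 and 6159 CPM (counts scaled to library size) in GFP+ sBC, against 2399 and 1670 CPM in GFP- sBC. In RNA 5 pluripotency markers summed to 2751 and 2829 CPM in hPSC and to at most 51.81 CPM in the other groups, and 6 endoderm markers to 3479 and 3661 CPM in DE and to at most 143.1 CPM in the others.

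A dividing cell loads the MCM helicase onto replication origins in G1, with CDC6 and CDT1 as loaders and geminin (GMNN) as the brake on CDT1. D cyclins and then cyclin E with CDK2 release the E2F factors, which switch on the genes of DNA synthesis, and the CDK inhibitors CDKN1A (p21) and CDKN1B (p27) hold these kinases back. Cyclins A and B with CDK1 drive the cell into mitosis, where the spindle checkpoint holds back the ubiquitin ligase that ends it. Pluripotent stem cells are known for fast cycles with a short G1, and beta cells for dividing rarely once they make insulin.

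Library totals ran from 6606248 counts in IP-Ribo of DE to 92533993 counts in RNA of DE, and RNA of DE and hPSC was deepest. The members took 0.8064% and 0.7781% of the protein-coding counts of hPSC RNA, 0.4692% and 0.5016% in DE, 0.1194% and 0.1147% in GFP+ sBC, and 0.2982% and 0.199% in GFP- sBC. Their IP-Ribo share was 0.8811% and 0.857% in hPSC, 0.5252% and 0.6239% in DE, and 0.1312% and 0.1066% in GFP+ sBC. Of the 45 members 3 and 6 had under 10 counts in the RNA libraries of GFP+ sBC and 5 and 14 in its IP-Ribo libraries, and none had so few in the libraries of the other 7 groups. Protein-coding genes held 40.5% of the counts of Ribo DE replicate 1 and 54.6% and 62.8% in IP-Ribo of GFP+ sBC, against 76% to 90.4% in the others. Processed pseudogenes named after a member stand in the same table for 12 of the 45, among them 5 of UBE2C, 4 of PCNA and 3 of RRM2, and reads that such copies share could not be told apart. In bulk libraries fewer dividing cells and less RNA per cell cannot be told apart.

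Some short promoter motifs differed between the replication genes and the mitotic ones among the members, and another was common in both. RefSeq windows of 300 bases (GRCh38.p14, 250 before the transcription start and 50 after it) were at hand for 36 of the 45 members, and 3 kinds of motif were searched on both strands. The first is the E2F type, as TTTGGCGC, TTTCGCGC or TTTCCCGC, known from S phase genes. The second is CCAAT, the box bound by NF-Y, and the third is the cell cycle genes homology region (CHR), as TTTGAA or TTCGAA, known from mitotic genes. An E2F type match stood in 8 of 11 promoters of origin licensing and helicase genes and in 4 of 7 of the fork and nucleotide genes, against 3.77% of 15843 protein-coding promoters. A CHR match stood in 8 of 8 promoters of the spindle group and in 3 of 6 of the G2 and M kinases and cyclins, but in 1 of 11 of the licensing genes, against 13.5% of all promoters. CCAAT was in 28 of the 36, against 36.4% of all. It was the motif common in both, in 8 of 11 licensing and helicase promoters and 7 of 8 of the spindle group. CCAAT with CHR was in 7 of 8 of the spindle group, against 5.57% of all. Matches of different motifs can overlap, as at the MCM7 start site, where an E2F type match runs into a CCAAT. A match is a run of letters and not a shown binding site. The 6 promoters below are examples, with all matches in capitals, written 5′ to 3′ on the gene's strand. MCM6 lies at chr2:135876394-135876693 (minus strand) and MCM7 at chr7:100101348-100101647 (minus strand), both helicase subunits. MCM6 is not typical of its group. It is the licensing gene with the CHR match, and its RNA was not called lower in DE. Its 4 E2F type matches overlap in pairs, each pair in 1 run of capitals. CCNB2 lies at chr15:59104896-59105195, KIF11 at chr10:92592880-92593179 and CDC20 at chr1:43358731-43359030 (all plus strand), mitotic genes with CCAAT and CHR. CDKN1A lies at chr6:36678464-36678763 (plus strand), the member that rose in GFP+ sBC relative to hPSC, and none of the motifs is in its window. That does not set it apart, since GMNN, FEN1 and CCNE1, which fell in the same comparison, had no match either. CDKN1B, which was not called there, had 3 CCAAT matches.
MCM6: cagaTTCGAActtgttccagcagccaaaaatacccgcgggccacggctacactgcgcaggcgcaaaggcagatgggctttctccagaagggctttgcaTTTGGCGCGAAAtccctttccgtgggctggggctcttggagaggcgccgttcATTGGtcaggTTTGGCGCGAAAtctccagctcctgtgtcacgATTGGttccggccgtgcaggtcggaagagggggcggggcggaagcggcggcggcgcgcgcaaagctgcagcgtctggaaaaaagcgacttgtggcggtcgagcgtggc
MCM7: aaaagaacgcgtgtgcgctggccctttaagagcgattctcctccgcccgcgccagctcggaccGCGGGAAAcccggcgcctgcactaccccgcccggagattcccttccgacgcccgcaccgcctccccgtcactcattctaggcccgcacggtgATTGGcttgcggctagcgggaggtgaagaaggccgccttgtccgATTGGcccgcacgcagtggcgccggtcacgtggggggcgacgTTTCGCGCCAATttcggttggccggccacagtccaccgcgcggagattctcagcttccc
CCNB2: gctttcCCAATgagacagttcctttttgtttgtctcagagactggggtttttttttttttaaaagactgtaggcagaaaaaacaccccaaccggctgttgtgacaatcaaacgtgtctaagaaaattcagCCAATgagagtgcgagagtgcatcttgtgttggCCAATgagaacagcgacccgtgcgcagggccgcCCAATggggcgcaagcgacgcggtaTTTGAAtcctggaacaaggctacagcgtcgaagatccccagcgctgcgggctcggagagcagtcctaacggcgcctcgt
KIF11: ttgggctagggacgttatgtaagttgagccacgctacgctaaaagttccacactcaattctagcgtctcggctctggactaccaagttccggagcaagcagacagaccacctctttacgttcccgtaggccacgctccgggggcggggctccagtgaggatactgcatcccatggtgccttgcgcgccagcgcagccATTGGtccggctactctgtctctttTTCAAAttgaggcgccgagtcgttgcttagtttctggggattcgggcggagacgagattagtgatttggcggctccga
CDC20: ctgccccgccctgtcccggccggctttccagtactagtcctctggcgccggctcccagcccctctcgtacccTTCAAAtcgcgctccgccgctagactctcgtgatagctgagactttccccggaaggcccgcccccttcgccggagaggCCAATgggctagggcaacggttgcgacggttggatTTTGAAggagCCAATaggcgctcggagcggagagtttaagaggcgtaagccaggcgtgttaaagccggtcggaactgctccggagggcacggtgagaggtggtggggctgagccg
CDKN1A: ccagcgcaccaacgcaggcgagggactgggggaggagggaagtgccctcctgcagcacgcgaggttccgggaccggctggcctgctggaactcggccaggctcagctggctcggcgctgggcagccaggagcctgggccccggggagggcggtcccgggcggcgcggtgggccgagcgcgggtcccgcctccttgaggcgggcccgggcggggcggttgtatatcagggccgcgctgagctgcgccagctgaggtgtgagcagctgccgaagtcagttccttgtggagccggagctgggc

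Against hPSC, GFP+ sBC had nearly the whole programme at a lower RNA level. Of the 45 members 43 fell, 1 rose (CDKN1A) and 1 did not pass (CDKN1B), by edgeR's quasi-likelihood test over all genes at an adjusted p under 0.05, where 30.9% of all tested genes were called lower and 30.4% higher. Whether the 2 libraries of a group were grown apart is not stated, and the p-values measure only the spread between libraries, which may be technical. The median log2 fold change of the members was -6.40, against 0.045 over all genes tested. The groups of libraries did not overlap for 44 members, 43 of them lower in GFP+ sBC, as were 43.8% of all genes tested. Set against DE, 44 fell and 1 rose in GFP+ sBC, with 30.9% of all genes lower and 29.9% higher. The largest falls relative to hPSC were in the spindle group (median -7.17) and in the G2 and M cyclins and kinases (median -6.96), and the smallest were in the fork and nucleotide group (median -2.76). In the plot of changes relative to hPSC this order is seen as the lower red points at both ends of the axis and the shallow stretch between them.

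**Figure D1:**
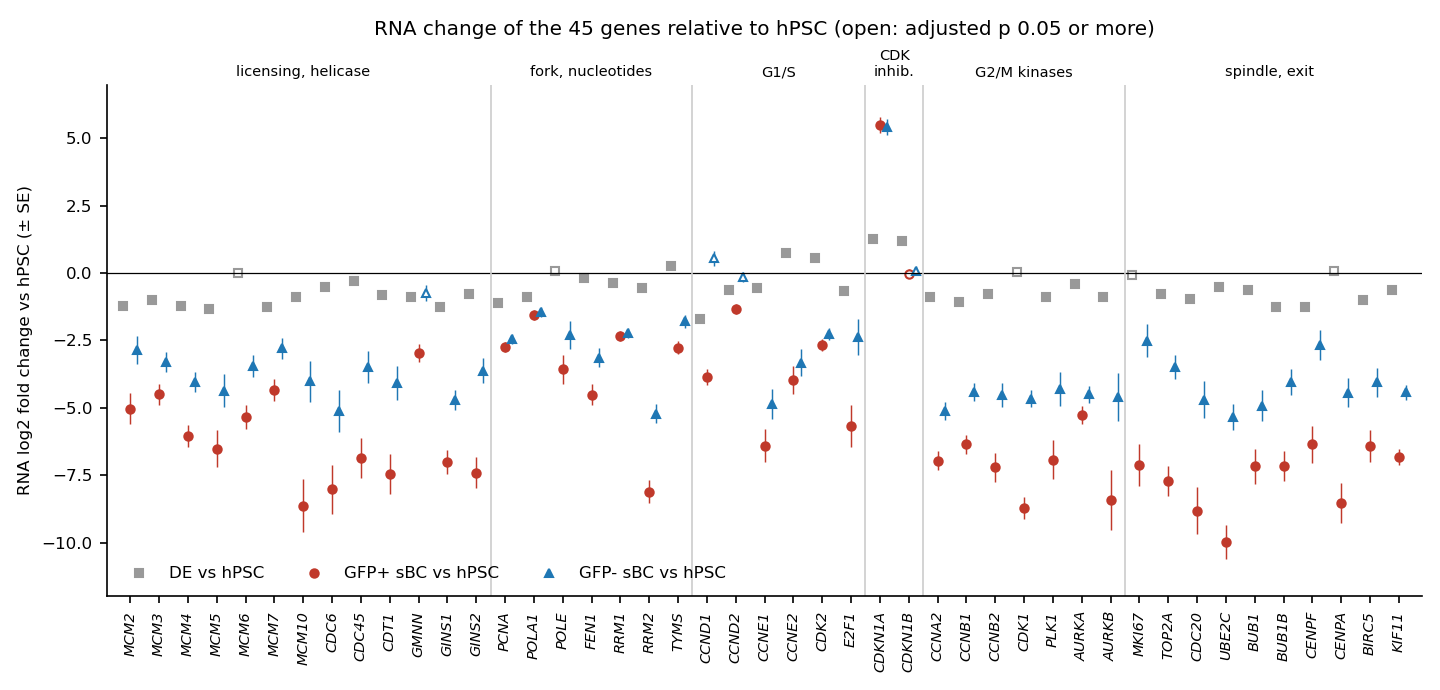
RNA log2 fold change relative to hPSC (y axis, with the standard error as bars) of the 45 genes (x axis, by role) in DE, GFP+ sBC and GFP- sBC. Filled symbols passed an adjusted p under 0.05; GFP+ sBC lie lowest for most genes, DE lies near 0, and CDKN1A stands alone at the top with 5.49 in GFP+ sBC.

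Among the licensing and helicase genes all 13 fell in GFP+ sBC relative to hPSC. MCM3, a subunit of the helicase ring, had 454 and 458 CPM in hPSC RNA, 218 and 227 in DE, 20.4 and 20.2 in GFP+ sBC and 64.2 and 28.3 in GFP- sBC. The 4 groups did not overlap, and GFP+ sBC were lowest. Its log2 fold change was -4.49 ± 0.39 (SE) in GFP+ sBC relative to hPSC (adjusted p = 6.53e-05). MCM4, another ring subunit, had 534 and 553 CPM in hPSC, 224 and 230.4 in DE, 9.06 and 7.38 in GFP+ sBC and 45.5 and 21.2 in GFP- sBC. MCM7, of the same ring, had 477 and 470.0 CPM in hPSC, 194 and 192 in DE, 23.7 and 23.1 in GFP+ sBC and 97.1 and 39.7 in GFP- sBC. Both kept that order of the groups. The log2 changes in GFP+ sBC relative to hPSC were -6.05 ± 0.41 for MCM4, -4.34 ± 0.41 for MCM7, -5.03 ± 0.57 for MCM2, -6.51 ± 0.70 for MCM5 and -5.36 ± 0.44 for MCM6. The loader CDC6 (-8.02 ± 0.91), the loader CDT1 (-7.44 ± 0.75), the firing factors MCM10 (-8.64 ± 0.98) and CDC45 (-6.86 ± 0.74) and the GINS subunits GINS1 (-7.01 ± 0.44) and GINS2 (-7.40 ± 0.59) fell further than the ring. GMNN fell least, at -2.96 ± 0.33 on the same scale.

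**Figure D2:**
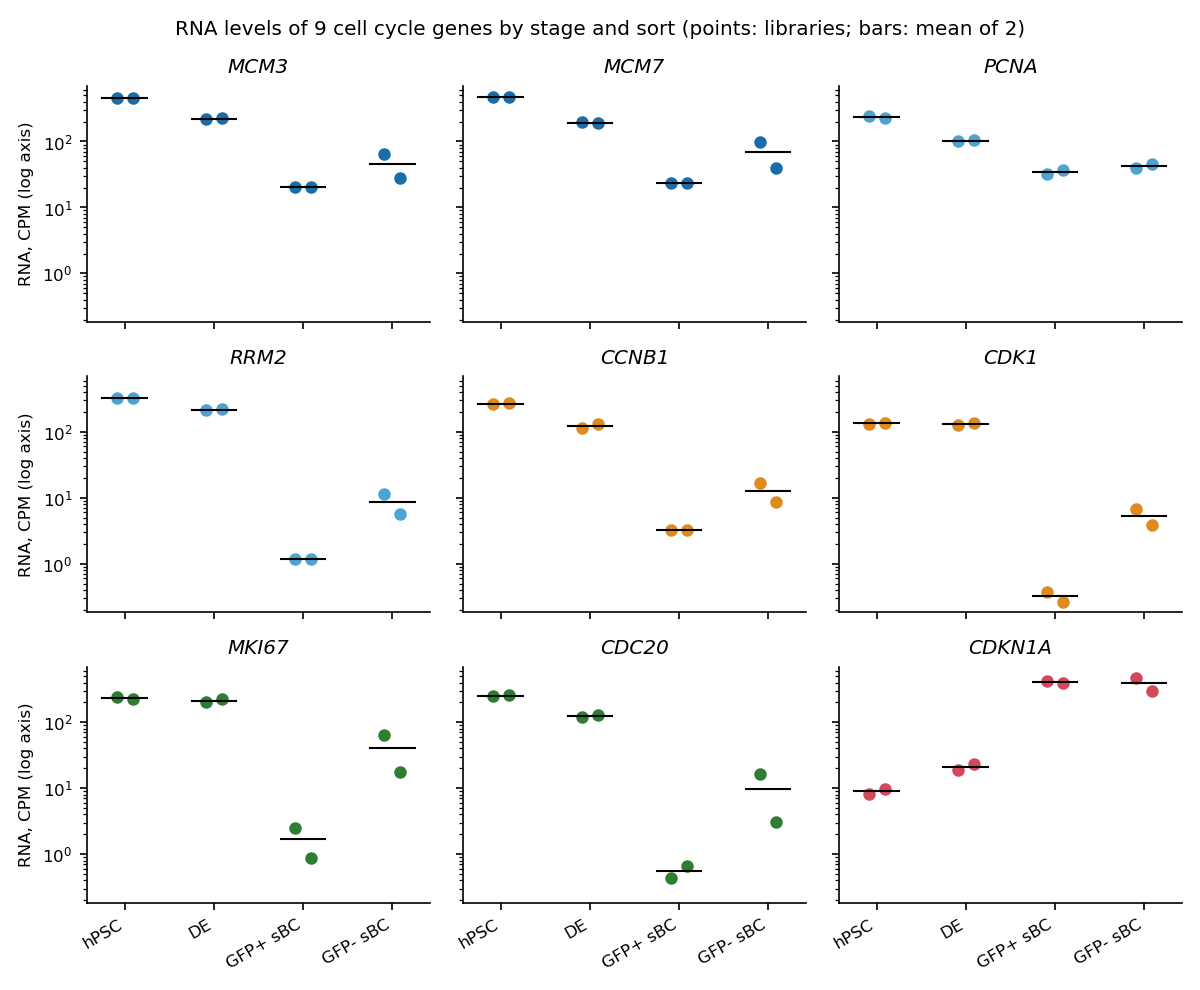
RNA level in CPM (log axis) of 9 genes over the 4 groups from hPSC to GFP- sBC, with 1 point per library and a bar at the mean of 2. The 8 cycle genes are lowest in GFP+ sBC, PCNA least so, while CDKN1A is highest in both sBC groups.

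The fork and nucleotide genes split. PCNA, the sliding clamp, had 239.7 and 225 CPM in hPSC RNA, 103 and 104 in DE, 32.1 and 37.4 in GFP+ sBC and 39.2 and 45.3 in GFP- sBC, so a sizeable level remained in both sorted groups. RRM2, the regulated subunit of ribonucleotide reductase, had 326 and 324 CPM in hPSC, 211 and 219 in DE, 1.18 and 1.17 in GFP+ sBC and 11.6 and 5.73 in GFP- sBC, and was all but gone in GFP+ sBC. Their log2 changes in GFP+ sBC relative to hPSC were -2.74 ± 0.19 for PCNA and -8.11 ± 0.41 for RRM2. RRM1, the large subunit of the same enzyme, fell by less (-2.32 ± 0.19), as did POLA1, the primase-bound polymerase (-1.56 ± 0.18), TYMS, thymidylate synthase (-2.76 ± 0.24), and POLE, the leading strand polymerase (-3.57 ± 0.55). FEN1, the flap nuclease of the lagging strand, was at -4.51 ± 0.38. POLE itself had 150.1 and 145 CPM in hPSC, 145 and 154 in DE, 12.0 and 12.9 in GFP+ sBC and 47.6 and 12.8 in GFP- sBC.

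The G1 and S phase regulators all fell in GFP+ sBC relative to hPSC, by different amounts. CCND2, a D cyclin, had 334 and 284 CPM in hPSC RNA, 193 and 190.1 in DE, 137 and 109.9 in GFP+ sBC and 299 and 262 in GFP- sBC. CCND1, the other D cyclin among the members, had 255 and 216 CPM in hPSC and 66.2 and 74.1 in DE. It had 18.8 and 13.9 CPM in GFP+ sBC and 427 and 264 in GFP- sBC. The log2 change in GFP+ sBC relative to hPSC was -1.33 ± 0.19 for CCND2 and -3.85 ± 0.30 for CCND1. CDK2, partner of the E cyclins, had 58.6 and 57.8 CPM in hPSC, 84.4 and 80.2 in DE, 10.4 and 7.99 in GFP+ sBC and 11.4 and 12.9 in GFP- sBC, highest in DE. CCNE1 (-6.40 ± 0.62) and CCNE2 (-3.96 ± 0.52), the E cyclins, and the transcription factor E2F1 (-5.67 ± 0.78) were close to absent in GFP+ sBC. E2F1 had 0.889 and 1.17 CPM there.

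Neither CDK inhibitor was called lower in GFP+ sBC relative to hPSC. CDKN1A, a p53 target, had 8.25 and 9.89 CPM in hPSC RNA, 19.2 and 23.3 in DE, 420.0 and 394 in GFP+ sBC and 475 and 300.2 in GFP- sBC. Every sBC library lay above every DE library, and these above both hPSC libraries. It rose by 5.49 ± 0.30 on the log2 scale in GFP+ sBC relative to hPSC (adjusted p = 1.18e-05) and by 1.28 ± 0.12 in DE relative to hPSC. CDKN1B had 44.9 and 49.0 CPM in hPSC, 103 and 105 in DE, 45.8 and 46.3 in GFP+ sBC and 50.4 and 49.5 in GFP- sBC. It peaked in DE (1.20 ± 0.05 relative to hPSC), and in GFP+ sBC its log2 difference from hPSC was -0.03 ± 0.17 (adjusted p = 0.901), with a sign that depended on the settings.

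**Figure D3:**
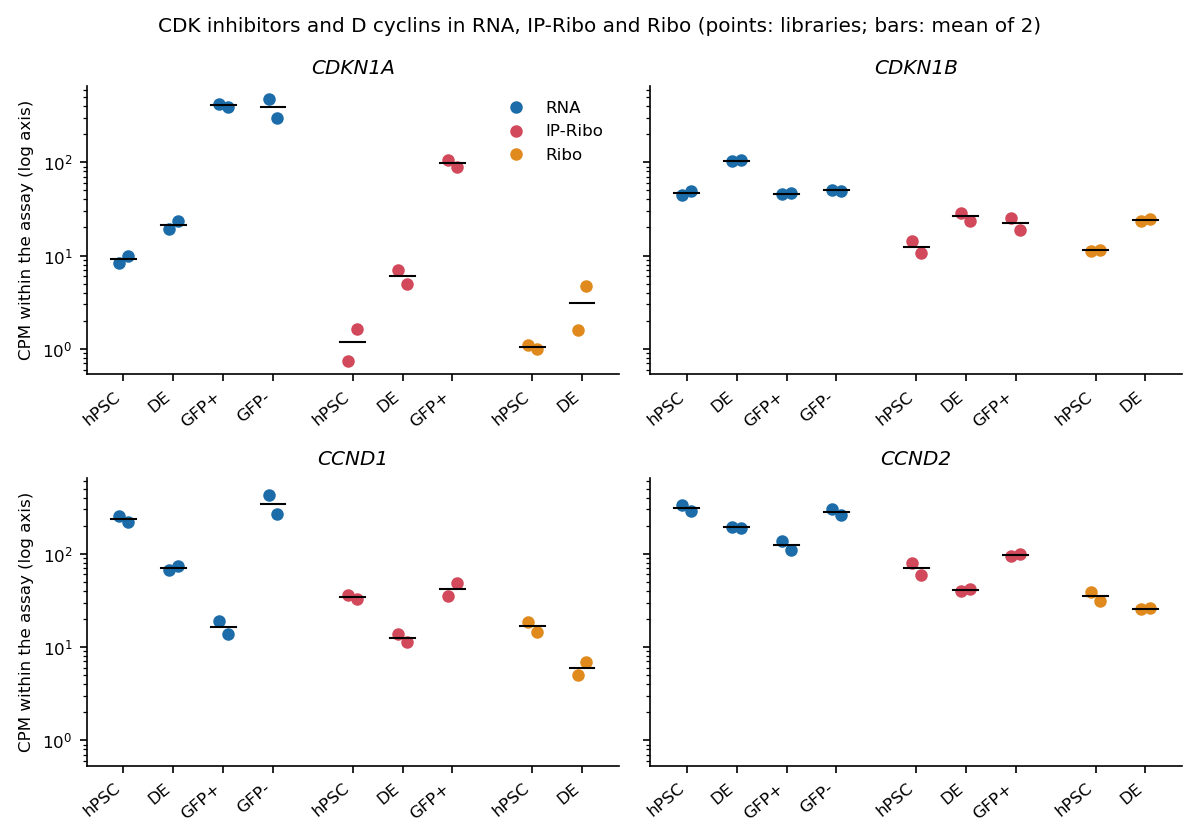
Level in CPM within each assay (log axis) of CDKN1A, CDKN1B, CCND1 and CCND2 by group, with 1 point per library and a bar at the mean of 2. CDKN1A is highest in sBC in RNA and IP-Ribo, and CCND1 is low in GFP+ RNA at 18.8 and 13.9 CPM but not in GFP+ IP-Ribo at 35.3 and 48.5 CPM.

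All 7 G2 and M cyclins and kinases and all 10 genes of the spindle group fell in GFP+ sBC relative to hPSC. CCNB1, the B cyclin that activates CDK1, had 261 and 277 CPM in hPSC RNA, 115 and 129 in DE, 3.24 and 3.30 in GFP+ sBC and 16.6 and 8.67 in GFP- sBC. CDK1, the mitotic kinase, had 133 and 135 CPM in hPSC, 129 and 138 in DE, 0.373 and 0.266 in GFP+ sBC and 6.74 and 3.82 in GFP- sBC. So the DE and hPSC libraries of CDK1 overlapped, and it was nearly lost in GFP+ sBC, at 13 and 10 counts, a log2 change of -8.71 ± 0.40 (adjusted p = 7.39e-06). CCNA2 (-6.96 ± 0.36), CCNB2 (-7.21 ± 0.53), the kinase PLK1 (-6.92 ± 0.73) and the Aurora kinases AURKA (-5.26 ± 0.32) and AURKB (-8.43 ± 1.12) fell too. AURKB had 21 and 0 counts in GFP+ sBC, so its fitted change rests on 1 library and was -15.49 without GFP+ replicate 1. CCNA2 had 205 and 217 CPM in hPSC, 106 and 115 in DE, 1.46 and 1.92 in GFP+ sBC and 7.78 and 4.41 in GFP- sBC. PLK1 had 185 and 196 CPM in hPSC, 95.7 and 104 in DE, 1.43 and 1.71 in GFP+ sBC and 15.6 and 3.44 in GFP- sBC. In both genes GFP+ sBC were lowest and hPSC highest.

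TOP2A, the topoisomerase that untangles sister chromatids, had 403 and 359 CPM in hPSC RNA, 210.4 and 224 in DE, 2.52 and 1.09 in GFP+ sBC and 46.0 and 21.9 in GFP- sBC. MKI67, the proliferation antigen Ki-67, had 239 and 224 CPM in hPSC, 200.1 and 223 in DE, 2.49 and 0.879 in GFP+ sBC and 63.8 and 17.7 in GFP- sBC. CENPF, a kinetochore protein, had 308 and 266 CPM in hPSC, 110.1 and 124 in DE, 3.87 and 3.12 in GFP+ sBC and 72.2 and 17.8 in GFP- sBC. All 3 were lowest in GFP+ sBC without overlap. The largest fall of any member in GFP+ sBC relative to hPSC was that of UBE2C, the ubiquitin conjugating enzyme of mitotic exit, at -9.99 ± 0.63, with 0.258 and 0.107 CPM in GFP+ sBC and 181 and 191 CPM in hPSC. CDC20, the activator of the exit ligase, followed at -8.82 ± 0.87. The centromeric histone CENPA was at -8.52 ± 0.74, with 0 and 5 counts in GFP+ sBC, and its fitted change was -13.52 without GFP+ replicate 2, the library that held these counts. The checkpoint kinases BUB1 (-7.17 ± 0.66) and BUB1B (-7.17 ± 0.56), the spindle motor KIF11 (-6.82 ± 0.31) and survivin BIRC5 (-6.42 ± 0.60) fell as well.

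The GFP sort itself asked whether insulin reporter positive cells differ from the negative cells at the same stage. Whether the GFP+ and GFP- libraries came from the same cultures is not stated. GFP+ sBC had lower RNA for 11 of the 45 members, and none was higher (0 at an unadjusted p under 0.05, 0 by DESeq2), where 2.35% of all tested genes were called lower and 0.0808% higher. For 41 of 45 members both GFP+ libraries lay below both GFP- libraries, as they did for 22.6% of all genes tested. The median log2 fold change of the members was -2.25, against 0.0046 over all genes. By role the calls fell on 6 of 10 genes of the spindle group and on 5 of the other 35 members. Without GFP- replicate 2 the count was 36, with 19.8% of all genes lower, and DESeq2 called 31, with 5.84% of all genes lower.

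**Figure D4:**
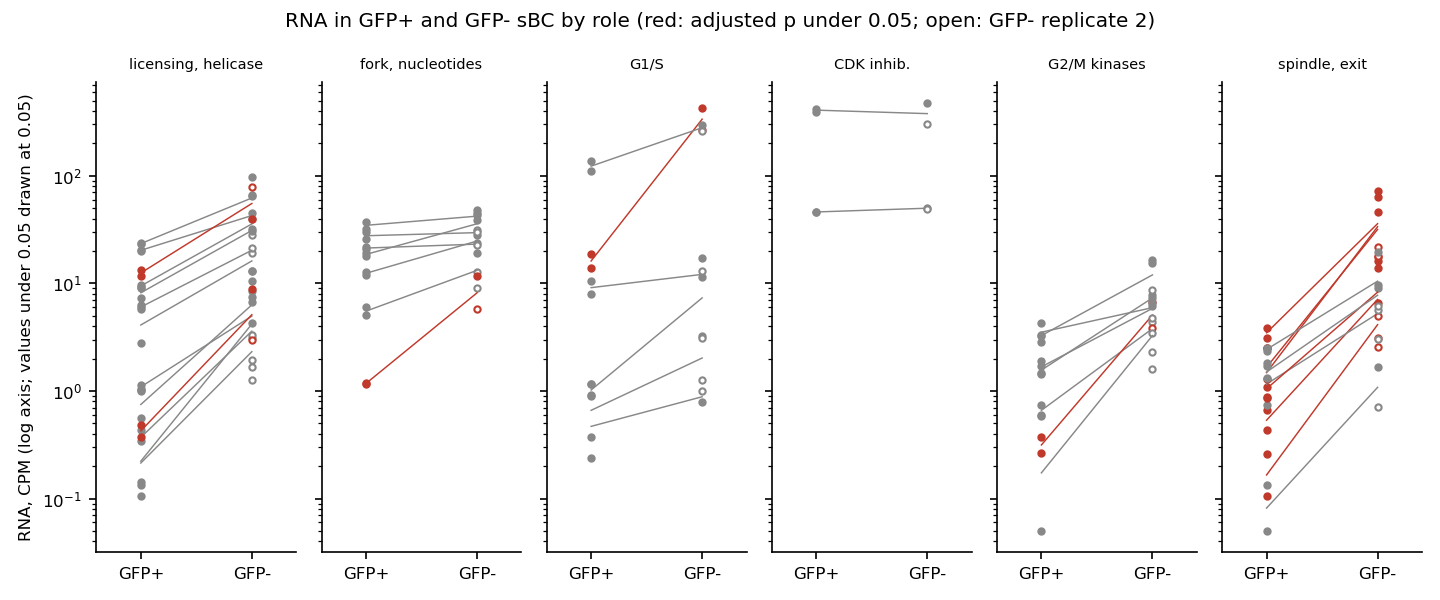
RNA level in CPM (log axis) of the members in GFP+ and GFP- sBC, by role, with 1 point per library, open for GFP- replicate 2, and a line between the geometric means of each group. Red genes passed an adjusted p under 0.05; most lines are higher at GFP-, and that of CDKN1A is flat.

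The members called lower in the sort, by role, were the following. GMNN was at 13.2 and 11.8 CPM in GFP+ sBC, against 39.2 and 77.8 CPM in GFP- sBC (-2.23 ± 0.43, adjusted p = 0.0425). GINS2 was at 0.487 and 0.373 CPM, against 8.82 and 2.97 CPM in GFP- sBC (-3.77 ± 0.69). RRM2 was at 1.18 and 1.17 CPM, against 11.6 and 5.73 CPM in GFP- sBC (-2.89 ± 0.54). These are the brake on CDT1, a helicase subunit and a nucleotide enzyme, and each lost its call when 1 GFP+ library was left out. CCND1 gave the smallest adjusted p of the members (0.00392), at 18.8 and 13.9 CPM in GFP+ sBC, against 427 and 264 CPM in GFP- sBC, a log2 change of -4.41 ± 0.42. Its GFP- level was not below that of hPSC (log2 difference of GFP- sBC from hPSC 0.55 ± 0.27, adjusted p = 0.115). CDK1 was at -4.04 ± 0.61 and lost its call without GFP+ replicate 2. In the spindle group MKI67 (-4.60 ± 0.77), TOP2A (-4.24 ± 0.59), CDC20 (-4.13 ± 0.83), UBE2C (-4.65 ± 0.77), BUB1B (-3.14 ± 0.63) and CENPF (-3.69 ± 0.66) were called, with adjusted p between 0.014 for TOP2A and 0.0484 for CDC20. BUB1B lost its call when either GFP+ library was left out. Without GFP- replicate 1 the change of CDC20 was -2.53 and that of CENPF -2.38. KIF11 missed narrowly (-2.40 ± 0.49, adjusted p = 0.0502).

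Members with small differences that did not pass in the sort were PCNA (-0.29 ± 0.34, adjusted p = 0.759), RRM1 (-0.10 ± 0.34), POLA1 (-0.13 ± 0.34), CDK2 (-0.41 ± 0.38), CDKN1A (0.06 ± 0.35) and CDKN1B (-0.12 ± 0.33). Their standard errors of 0.33 to 0.38 set the size of difference that could be seen. CCND2 was lower in both GFP+ libraries but did not pass (-1.19 ± 0.32, adjusted p = 0.123). POLE had 1 GFP+ library at its GFP- replicate 2 level, and it did not pass (-1.29 ± 0.58).

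The 2 GFP- libraries differed from each other. In 40 of 45 members replicate 1 was higher, with a median log2 difference of 1.18, and MKI67 was at 63.8 CPM in replicate 1 and 17.7 CPM in replicate 2. GMNN ran against this, at 39.2 CPM in replicate 1 and 77.8 CPM in replicate 2. Markers of other cell types were also lower in GFP+ sBC, and the GFP- replicates lay far apart in the mesenchyme sum and closer in the duct and acinar sums. Of 6 duct and pancreatic progenitor markers 4 were lower in GFP+ sBC, with a summed level of 184.3 and 299.7 CPM in GFP+ sBC and 1432 and 1333 CPM in GFP- sBC. Of 8 mesenchyme markers 3 were lower, at 143.9 and 163.8 CPM in GFP+ sBC and 619.3 and 273.9 CPM in GFP- sBC. Acinar markers summed to 5.677 and 7.328 CPM in GFP+ sBC and 84.96 and 100.3 CPM in GFP- sBC, with 1 of 4 tested called lower. Of all genes 2.35% were called lower in this comparison. Of 6 beta cell and 5 endocrine markers 0 were called, and of 5 other hormone markers 1 was higher and 0 were lower. Transcripts encoded in mitochondria summed to 45500 and 34090 CPM in GFP+ sBC and 3614 and 34770 CPM in GFP- sBC. The part of these cells or transcripts in the result was not tested.

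Relative to hPSC, GFP- sBC had lower RNA for 40 members and higher RNA for 1, CDKN1A (5.42 ± 0.30), where 28.3% of all genes were called lower and 31.2% higher. GMNN, CCND1, CCND2 and CDKN1B were the 4 not called. Set against DE, 39 were lower in GFP- sBC and 3 higher, with 28.1% of all genes lower and 30.4% higher. The 3 were CDKN1A, CCND1 (2.30 ± 0.28) and CCND2 (0.55 ± 0.19, adjusted p = 0.0366). The call of CCND2 was lost when any 1 DE or hPSC library was left out. So in GFP- sBC CCND1 and CCND2 stood above DE while MKI67 (-2.38 ± 0.62), TOP2A (-2.68 ± 0.44) and CCNB1 (-3.28 ± 0.31) stood below it. These comparisons and those of GFP+ sBC share the hPSC and DE libraries.

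DE had moderately lower RNA than hPSC for most members. Of the 45 members 35 fell, 5 rose and 5 did not pass, where 36.8% of all genes were called lower and 38.7% higher. The median log2 fold change was -0.759, so these falls were far smaller than those of GFP+ sBC. Standard errors were small (median 0.0537), and when the change was tested against a log2 size of 1 with glmTreat the counts were 9 lower and 2 higher, with 11.9% of all genes lower. They were again 9 lower and 2 higher when the 8 RNA libraries shared 1 estimate of the spread, with 13.8% of all genes lower. MCM3, with 218 and 227 CPM in DE and 454 and 458 CPM in hPSC, stands for the licensing group, in which 12 of 13 fell. Its log2 change was -0.98 ± 0.05, that of GINS1 -1.25 ± 0.05 and that of MCM7 -1.24 ± 0.04. MCM6 did not share it, at 236 and 248 CPM in DE and 243 and 250.5 CPM in hPSC (0.02 ± 0.05, adjusted p = 0.678). CCND1 fell furthest of all members, at -1.70 ± 0.10 on the log2 scale. BUB1B (-1.27 ± 0.05), CENPF (-1.24 ± 0.10), CCNB1 (-1.08 ± 0.06) and BIRC5 (-1.0 ± 0.06) led the mitotic genes.

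Apart from the CDK inhibitors, the members that rose in DE relative to hPSC were CCNE2, CDK2 and TYMS. CCNE2 was at 14.7 and 14.7 CPM in DE and 9.08 and 8.83 CPM in hPSC (0.76 ± 0.08). CDK2 rose by 0.55 ± 0.05 and TYMS by 0.26 ± 0.09 (adjusted p = 0.0381), a call that was lost without DE replicate 2 (0.14) or hPSC replicate 2, and 0.40 without DE replicate 1. CDK1, POLE, MKI67 and CENPA, like MCM6, did not pass. MKI67 was at 200.1 and 223 CPM in DE and 239 and 224 CPM in hPSC (-0.08 ± 0.06), so the proliferation antigen was not detectably lower while MCM5 (-1.31 ± 0.04) and CCND1 were.

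Total footprints gave the same comparison at the level of ribosomes. In Ribo 29 members fell in DE relative to hPSC, 3 rose and 13 did not pass, with 16.9% of all genes lower and 17.2% higher. The median log2 change of the members was -0.891. MCM2 (-1.90 ± 0.19), CENPF (-1.91 ± 0.16), MCM7 (-1.61 ± 0.16) and GINS1 (-1.54 ± 0.16) were among those that fell, and CDKN1B (1.09 ± 0.15), CCNE2 (0.91 ± 0.25) and CDK2 (0.70 ± 0.15) were the 3 that rose. MCM7 had 124 and 123 CPM in Ribo of DE and 367 and 388 CPM in Ribo of hPSC. No member was called when either hPSC library was left out, and of all genes only 1.18% were called without hPSC replicate 1 and 0.435% without hPSC replicate 2. The change of MCM7 over the fits without 1 library was -1.68 to -1.59.

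In IP-Ribo 20 members fell in DE relative to hPSC, 2 rose and 23 did not pass, with 12.5% of all genes lower and 9.78% higher. The 2 were CDKN1A (2.29 ± 0.40) and CDKN1B (1.07 ± 0.28). GINS2 (-2.27 ± 0.38), CENPF (-2.01 ± 0.49), BUB1B (-1.90 ± 0.27) and MCM7 (-1.89 ± 0.24) had the largest falls. CENPF lost its call without any 1 of the 4 libraries, and CDKN1B without DE replicate 1 or either hPSC library. MCM7 had 229 and 182 CPM in IP-Ribo of DE and 760.2 and 759.8 CPM in IP-Ribo of hPSC. Leaving out 1 library at a time moved the count of lower members between 8 and 22. It was 11 without DE replicate 1, 8 without hPSC replicate 1 and 10 without hPSC replicate 2, where 5.46%, 3.32% and 4.35% of all genes were lower.

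The change from hPSC to DE in footprints was set against that in RNA, as the ratio of footprints to RNA (translational efficiency, TE). With IP-Ribo no member's ratio was called by edgeR (smallest adjusted p = 0.298), 1 was higher and 1 lower at an unadjusted p under 0.05, DESeq2 called 3 lower (2.38% of all genes), and 0.167% of all genes were called, of which 59.5% were higher and 44.1% with size factors. With Ribo none was called by edgeR, 2 were higher and 2 lower at an unadjusted p under 0.05, DESeq2 called 3 lower (2.98% of all genes), and 0.314% of all genes were called. The counts moved with single libraries, to 6 lower without IP-Ribo DE replicate 2, with 5.65% of all genes lower, and to 19 lower without Ribo DE replicate 2, with 11.3% lower. No member was called between IP-Ribo and Ribo by edgeR, in hPSC (5 higher and 0 lower at an unadjusted p under 0.05, 2 higher by DESeq2, 1.15% of all genes called) or in DE (11 higher and 0 lower, 3 higher by DESeq2, 0.863% called). The difference between the DE changes of IP-Ribo and Ribo was not called for any member by edgeR (1 higher and 1 lower at an unadjusted p under 0.05, 0 by DESeq2), with 0.0120% of all genes called.

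In IP-Ribo GFP+ sBC had fewer footprints than hPSC on 40 members and more on 2, the CDK inhibitors, where 28.5% of all genes were called lower and 30.4% higher. The median log2 change was -4.78, or -4.73 with CENPA, which had no count in GFP+ sBC, at its bound. CDKN1A had 107 and 89.4 CPM in IP-Ribo of GFP+ sBC and 0.735 and 1.64 CPM in hPSC, a log2 change of 6.34 ± 0.44, and CDKN1B rose by 0.82 ± 0.28 (adjusted p = 0.0354), a call lost without GFP+ replicate 1 or either hPSC library. CDT1, CCND1 and CCND2 did not pass. CCND1 had 35.3 and 48.5 CPM in GFP+ sBC and 36.1 and 32.6 CPM in hPSC (0.29 ± 0.25). Set against DE, 39 members were lower in GFP+ sBC and 3 higher, with 24.8% of all genes lower and 27.8% higher. The 3 were CDKN1A (4.05 ± 0.39), CCND1 (1.76 ± 0.26) and CCND2 (1.23 ± 0.23).

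PCNA, MCM3 and GMNN were among the members that kept footprints in GFP+ sBC, while 5 and 14 members had under 10 counts. PCNA had 104 and 98.4 CPM in IP-Ribo of GFP+ sBC and 512 and 454 CPM in hPSC (-2.25 ± 0.21). MCM3 had 34.9 and 32.5 CPM in GFP+ sBC and 517 and 521 CPM in hPSC (-3.95 ± 0.22). GMNN had 53.1 and 53.4 CPM in GFP+ sBC and 140.2 and 137 CPM in hPSC (-1.38 ± 0.27). In each of these genes both GFP+ libraries lay below both hPSC libraries. TOP2A had 50.8 and 16.4 CPM in GFP+ sBC, so its replicates were far apart, against 612 and 481 CPM in hPSC (-4.03 ± 0.60). MKI67, likewise split, had 12.4 and 3.80 CPM in GFP+ sBC and 152 and 147 CPM in hPSC (-4.21 ± 0.57). CENPA had no count in either GFP+ library, at least 19.2-fold lower than hPSC and at least 21.6-fold lower than DE, taking 3 counts over the group as the floor. Of the 45 members 36 were higher in GFP+ replicate 1 than in replicate 2, with a median log2 difference of 0.625.

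The ratio of IP-Ribo to RNA in GFP+ sBC relative to hPSC was called higher for 14 members and lower for 2, where 11.0% of all genes were called higher and 3.98% lower. In a fit of protein-coding genes alone, 17.3% of the genes were called higher and 5.12% lower, and all 16 member calls were kept. The median of the members was 0.878, against 0.069 over all genes. With size factors in place of TMM (the trimmed mean scaling of edgeR) the median of all genes was -0.061, 62.5% of all calls were higher where TMM gave 73.4%, and all 16 member calls were kept. Leaving out 1 library kept 9 to 15 of the 16, and 9 were kept without IP-Ribo GFP+ replicate 1, with 7 higher where 7.63% of all genes were higher. CCND1 was called with a log2 ratio change of 3.90 ± 0.31 (adjusted p = 8.41e-05), CCND2 with 1.54 ± 0.25, CDK1 with 3.0 ± 0.53 and BIRC5 with 1.92 ± 0.25. TOP2A (3.44 ± 0.70), UBE2C (3.10 ± 0.74), MKI67 (2.64 ± 0.71), MCM10 (2.17 ± 0.56), RRM2 (1.87 ± 0.35), KIF11 (1.83 ± 0.39), GINS1 (1.52 ± 0.24), GMNN (1.33 ± 0.28) and PLK1 (1.25 ± 0.32) were called too. CDT1 had the largest value (5.99 ± 1.26), with 156 and 8 IP-Ribo counts in the 2 GFP+ replicates, and it was 2.36 (adjusted p = 0.0435) without replicate 1. Without IP-Ribo GFP+ replicate 1 the value was 2.20 for TOP2A, 1.57 for UBE2C, 1.35 for MKI67, 1.22 for KIF11, 1.10 for RRM2, 0.89 for MCM10 and 0.63 for PLK1, which was 0.79 without IP-Ribo hPSC replicate 1. MCM7 (-0.87 ± 0.23, and -1.31 without IP-Ribo GFP+ replicate 1) and POLA1 (-0.98 ± 0.20) were the 2 called lower. The RNA side of the ratio was thin too, since 3 and 6 members had under 10 counts in the GFP+ sBC RNA libraries. CDK1 and UBE2C were at or near that level, so their ratios rest on few RNA counts. With 1 of the 12 libraries left out in turn, MKI67 lost its call 8 times, PLK1 7 times, CDT1, MCM10, UBE2C and MCM7 6 times each and GMNN 5 times, while those of CCND1, CCND2, CDK1, BIRC5 and GINS1 were kept throughout.

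**Figure D5:**
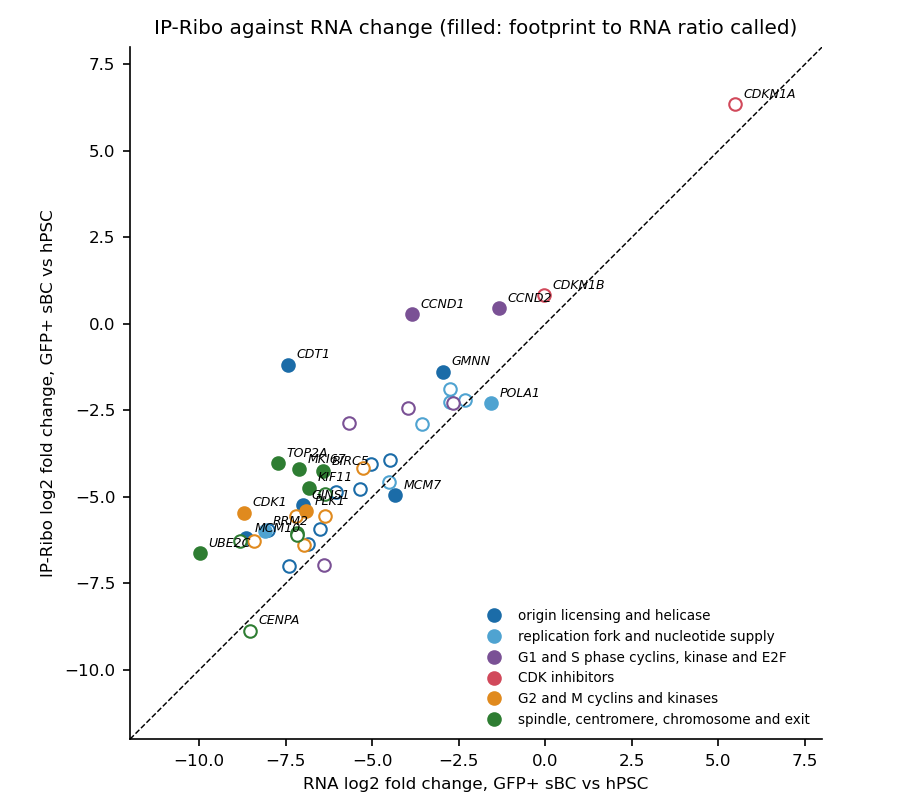
IP-Ribo log2 fold change (y axis) against RNA log2 fold change (x axis) of GFP+ sBC relative to hPSC for the 45 genes, coloured by role, with the dashed line at equal change. Filled points passed an adjusted p under 0.05 for the ratio; 14 lie above the line and MCM7 and POLA1 below it.

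Relative to DE the ratio was called higher in GFP+ sBC for 13 members and lower for 1, with 8.84% of all genes higher and 5.32% lower. The 1 lower was POLA1 (-0.70 ± 0.20), which lost its call in 11 of the 12 fits that left out 1 library, and CCND1 (3.34 ± 0.31) again gave the smallest adjusted p (0.000186). Without IP-Ribo GFP+ replicate 2 the count of higher members was 22, with 8.29% of all genes higher. On protein-coding genes alone it was 23, with 18% of all genes higher, the median of all genes at 0.246 in place of -0.093 and 81.2% of all calls higher in place of 62.4%. Markers of several cell types shifted in the same ratio. Relative to hPSC 4 of 5 tested duct and progenitor markers, 4 of 8 mesenchyme markers and 2 of 4 tested acinar markers had a higher ratio in GFP+ sBC. So had 2 of 5 endocrine and 2 of 6 endoderm markers, where 11.0% of all genes were called higher and 3.98% lower. Of 6 beta cell markers 0 were higher and 1 was lower, and of 5 other hormone markers 0 were called. Duct and progenitor markers summed to 977.6 and 1114 CPM in IP-Ribo of GFP+ sBC and to 184.3 and 299.7 CPM in its RNA, and mesenchyme markers to 328 and 290 CPM in IP-Ribo and 143.9 and 163.8 CPM in RNA. The 2 assays used cells of different labelled genotype, and the part of other cells in this ratio was not tested.

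Other genes of the same pathways were read from lists of 45 replication, 58 mitosis, 33 G1 control and 25 p53 target genes. In RNA of GFP+ sBC relative to hPSC 43 of 45 replication genes fell and none rose, and 57 of 58 mitosis genes fell, where 30.9% of all genes were lower and 30.4% higher. TK1, the thymidine kinase (-8.15 ± 0.91), UHRF1, which brings maintenance methylation to replicated DNA (-7.30 ± 0.87), the mitotic kinesin KIF20A (-9.03 ± 0.83) and the CDK phosphatase CDC25C (-9.0 ± 0.55) were the largest falls. SMC2, a condensin subunit, was the 1 mitosis gene that rose (1.94 ± 0.35). Of the G1 control list 22 fell and 5 rose. MYBL2 (-9.20 ± 1.16) and FOXM1 (-9.07 ± 0.88), transcription factors of the dividing cell, fell most, and the CDK inhibitors CDKN2B (6.26 ± 0.43) and CDKN1C (2.39 ± 0.19) rose most. Of the p53 targets 15 rose and 2 fell, led by GDF15 (6.32 ± 0.47) and BTG2 (5.72 ± 0.85), with TRIAP1 (-0.98 ± 0.20) and CCNG1 (-1.31 ± 0.27, its call lost without GFP+ replicate 1) lower.

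In the sort few genes of these lists were called by edgeR, all lower in GFP+ sBC, at shares near the 2.35% of all genes. Without GFP- replicate 2 the counts of lower genes were 20 for replication, 45 for mitosis and 16 for G1 control, where 19.8% of all genes were lower. DESeq2 called 10, 35 and 8 of these lists lower, and 5.84% of all genes. Those called by edgeR were 2 of 45 replication genes (TK1 -4.79 ± 0.94, its call lost at -3.11 without GFP- replicate 1, and UHRF1 -4.24 ± 0.83), 2 of 58 mitosis genes (KIF20A -4.74 ± 0.89 and TPX2, a spindle assembly factor, -4.27 ± 0.77), 1 of 33 G1 control genes (FOXM1 -4.35 ± 0.86) and 0 of 25 p53 targets (0 higher and 4 lower at an unadjusted p under 0.05, 1 lower by DESeq2). Without GFP- replicate 1 UHRF1 was at -2.55 and TPX2 at -2.76. The medians over the lists were -0.72 for replication, -2.23 for mitosis, -0.56 for G1 control and 0.02 for the p53 targets. In DE relative to hPSC 36 replication genes fell and 2 rose, 50 mitosis genes fell and 4 rose, 16 G1 control genes fell and 13 rose, and 3 p53 targets fell and 16 rose, against 36.8% of all genes lower and 38.7% higher, so the G1 control genes that rose were at the share of all genes. With all 8 RNA libraries in the fit 8 replication and 8 mitosis genes were lower, near the 13.8% of all genes. MYC (-2.92 ± 0.08) and MYCN (-1.53 ± 0.06) fell most among the G1 regulators, while CDKN2B (6.78 ± 0.17) and CDK6 (1.04 ± 0.08) rose most. ORC1 (-1.36 ± 0.05), of the origin recognition complex, and PTTG1 (-1.23 ± 0.09), securin, led the falls of replication and mitosis, and the kinase NEK2 rose (1.56 ± 0.07). BTG2 (4.23 ± 0.18) and GADD45A (3.58 ± 0.07) led the p53 targets.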

How the data were processed

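RNA, total footprint and FLAG footprint libraries of the MEL1 line were read from 1 deposited table of estimated counts per gene. The authors used Salmon, DESeq2, UMI-tools, cutadapt and Bowtie with GRCh38, per the submitters' processing notes, which give no versions or roles; the annotation release is not given in the sources used here. Of the values 16.8% to 31.3% per library were not whole, so counts were rounded. Gene names matched 98.7% of the 57808 identifiers.

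Tests used edgeR 4.0.16 in R 4.3.3 (filterByExpr, TMM scaling, robust quasi-likelihood fit) with Benjamini-Hochberg adjustment over all genes tested. A check on simulated counts planted changes of fixed size in well-counted genes, with a fixed spread. It does not show how the tests behave with few counts or uneven replicates. DE against hPSC in RNA and in Ribo and the GFP sort were fitted on their 4 libraries alone. Other RNA comparisons shared all 8 RNA libraries and the IP-Ribo ones all 6, and the ratio of footprints to RNA was an interaction term over both assays. Levels are CPM with TMM factors within an assay, not divided by gene length. SE is the log2 fold change over the root of its F. DESeq2 was version 1.42.0 and limma 3.58.1.

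The members and lists were chosen with earlier results of these data known. Values in every library are given for the 2 or 3 members of highest RNA level in a role, those moving against their role, the CDK inhibitors and the D cyclins, with a few further members added after values were seen. From each pathway list the largest called changes are named.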

Additional observations from a re-analysis of the deposited data

How the results depend on the processing

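Counts of members were recomputed with size factors (RLE), no filter, a stricter filter (1 CPM and 10 counts in at least 2 libraries), DESeq2, protein-coding genes alone, glmTreat with a minimum log2 change of 1, other libraries in the fit, and each library left out. Of the member counts 426 stayed within 1.5 times and 80 moved. Of the values of single genes 2175 kept direction and side of the threshold, 172 lost the call, 15 gained one and 17 changed sign. Where no value shows it, the cause was not tested. The fall of the members in GFP+ sBC relative to hPSC and DE in RNA moved under none of them.

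In the sort the 11 lower members became 32 with no filter, 31 with DESeq2, 5 with glmTreat and 25 with all 8 RNA libraries, and 8 to 36 without 1 library. The 1 higher member of GFP- sBC relative to hPSC became 2 on protein-coding genes alone and 1 to 2 without 1 library. For DE relative to hPSC in RNA, glmTreat and the fit of 8 libraries each gave 9 lower and 2 higher, and without 1 library there were 35 lower and 4 to 5 higher. In IP-Ribo of DE glmTreat gave 4 lower and 1 higher, and without 1 library 8 to 22 lower and 1 to 2 higher. In Ribo of DE glmTreat gave 6 lower and 0 higher, and without 1 library 0 to 31 lower and 0 to 3 higher. The 2 higher members in IP-Ribo of GFP+ sBC relative to hPSC became 1 with no filter, 1 with glmTreat and 1 to 2 without 1 library.

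The ratio of IP-Ribo to RNA in GFP+ sBC relative to hPSC gave 9 higher with no filter and 5 higher and 0 lower with glmTreat, and 7 to 17 higher and 0 to 2 lower without 1 library. Relative to DE it gave 25 higher with DESeq2, 23 on protein-coding genes and 5 with glmTreat, and 9 to 22 without 1 library. Its 1 lower member became 0 with RLE, no filter, protein-coding genes or glmTreat, and 0 to 1 without 1 library. For DE relative to hPSC the lower counts of 0 became 3 with DESeq2 in both ratios, and without 1 library 0 to 6 with IP-Ribo and 0 to 19 with Ribo. IP-Ribo against Ribo in hPSC gave 1 higher with RLE, no filter, the stricter filter or protein-coding genes, 2 with DESeq2 and 0 to 1 without 1 library; in DE it gave 1 with no filter, 3 with DESeq2 and 0 to 0 without 1 library.

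Within an assay same-numbered libraries correlated in their deviations at -0.068 in the sort, 0.015 for RNA of DE and hPSC, -0.23 in Ribo and -0.52 in IP-Ribo. Between footprints and RNA of 1 group the values were 0.25 (IP-Ribo) and 0.22 (Ribo) in hPSC, 0.19 (Ribo) and 0.00048 (IP-Ribo) in DE and 0.17 in GFP+ sBC. Not every pair was over 0.1, so the numbers were not taken as pairs. With the replicate number as a block the sort gave 30 lower, Ribo of DE 24 lower and 1 higher, and the GFP+ ratio relative to DE 0 lower. With the numbers of the DE footprint libraries exchanged, an alternative chosen after seeing the data, IP-Ribo against Ribo in hPSC gave 1 higher.

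Changes of sign fell on log2 values near 0. MCM6 in DE relative to hPSC was -0.0240 with the stricter filter, -0.00763 on protein-coding genes, -0.0290 in the fit of 8 libraries and -0.00905 to 0.0780 without 1 library. MKI67 in the same comparison was -0.155 to 0.0137 without 1 library, and CDKN1A in the sort -0.215 to 0.407. CDKN1B in RNA of GFP+ sBC relative to hPSC was 0.0199 with RLE and 0.0198 with DESeq2, 0.0444 with no filter, 0.0823 with the stricter filter, 0.276 on protein-coding genes, 0.0298 in the fit of the 4 compared libraries and -0.105 to 0.0826 without 1 library. At 3 to 14 of 45 members under 10 counts per GFP+ sBC library, depth limits the largest falls.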

Other observations

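The pathway lists were also low in the footprints of GFP+ sBC relative to hPSC. In IP-Ribo 44 of 45 replication genes and 56 of 58 mitosis genes fell and none rose by edgeR (0 of either at an unadjusted p under 0.05), where 28.5% of all genes were lower and 30.4% higher. ORC1 (-6.21 ± 0.35), of the origin recognition complex, KIF14 (-6.74 ± 0.38), a kinesin of cytokinesis, and the spindle checkpoint kinase TTK (-6.03 ± 0.54) stand for these falls. Of 32 tested G1 control genes 20 fell and 4 rose, among them MYBL2 (-7.10 ± 0.43) downwards and the CDK inhibitor CDKN1C (3.10 ± 0.61) upwards. Of the 25 p53 targets 15 rose and 1 fell, led by GDF15 (10.69 ± 0.62), a secreted stress cytokine, with the death receptors TNFRSF10B (4.71 ± 0.29) and FAS (5.02 ± 0.63). The median log2 change of the p53 targets was 1.98 in these footprints and 1.04 in RNA, and CDKN1A, a member of the cycle genes and a p53 target, is not counted in that list.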
